A study of Mus musculus with 4 samples.

Results

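The genes described here are 10 core members of the Hippo pathway, followed by RNA sequencing in blood stem and progenitor cells with and without the homeobox gene Hhex. They are the coactivators Yap1 and Wwtr1 (the gene of the protein TAZ), the 4 Tead transcription factors, and the kinases Lats1, Lats2, Stk3 and Stk4. They were taken by symbol from a table of 26286 genes. The list was drawn up with fold changes of these same libraries known, so the values below describe the members and are not tests of them. The cells were LSK cells from mouse bone marrow of the C57BL/6 strain, a fraction sorted for lacking lineage markers and carrying Sca-1 and Kit. A total of 2 libraries came from cells labelled with a deletion of Hhex and 2 from wild-type cells. The labels give no age, no sex and no further allele or agent, and do not say what drove the deletion or whether the libraries came from separate mice. P-values therefore measure only the spread between these libraries, which may be technical for the wild-type pair. Sex markers, given below, place the 2 libraries labelled Hhex-deleted in different mice.

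The Hippo pathway is a kinase cascade that limits tissue growth. The kinases MST2 and MST1, encoded by Stk3 and Stk4, activate the kinases LATS1 and LATS2, which phosphorylate YAP and TAZ and thereby keep them in the cytoplasm or mark them for degradation. Unphosphorylated YAP and TAZ enter the nucleus and drive transcription by binding TEAD proteins, which supply the contact with DNA. In blood cells Stk4 is best known for its role in lymphocyte survival and trafficking.

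Total counts per library lay between 27871827 and 29501591, and CPM is the count scaled to the normalised library total. On that scale 3 reads in a library correspond to 0.0995 to 0.109 CPM. Hhex itself had 127 and 115 CPM in wild-type and 179 and 188 CPM in the libraries labelled Hhex-deleted. The counts are over the whole gene and the deleted part is not given, so they do not check the deletion, and every direction below refers to libraries as labelled. Labelled Hhex-deleted replicate 1 stands apart by sex markers, with 2662 CPM of Xist against 1.89 to 2.66 CPM in the other libraries, and 0.343 CPM of the Y-linked gene Ddx3y against 124 to 138 CPM. By these markers replicate 1 is female and the other libraries are male, so the 2 libraries labelled Hhex-deleted came from different mice. Some results are therefore also given without labelled Hhex-deleted replicate 1. Kit stood at 566 to 698 CPM and Ly6a, which encodes Sca-1, at 20.7 to 42.5 CPM. Among genes of lineage surface markers, Cd3e had at most 8 reads and Ly6g at most 6 in any library.

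The members fell into groups by their levels. Both coactivators were close to silent in wild-type cells and present in the libraries labelled Hhex-deleted. Tead1 had no wild-type read and a low level in those libraries, Tead2 and Tead3 stood lower there, and the 4 kinases differed little. A total of 9 members passed the filter on low counts, and 3 of them, Yap1, Wwtr1 and Tead1, were past an edgeR adjusted p of 0.05, all higher. Between the groups 6 of the 9 did not overlap, against 45.5% of all tested genes. The threshold was passed by 2.6% of the 14912 genes tested, 1.48% higher and 1.12% lower. Because the members were chosen from this contrast, and a gene silent in one group can pass the filter only through the other, nothing is read from that count. In bulk RNA, fewer cells of a type and less RNA per cell cannot be told apart.

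**Figure D1:**
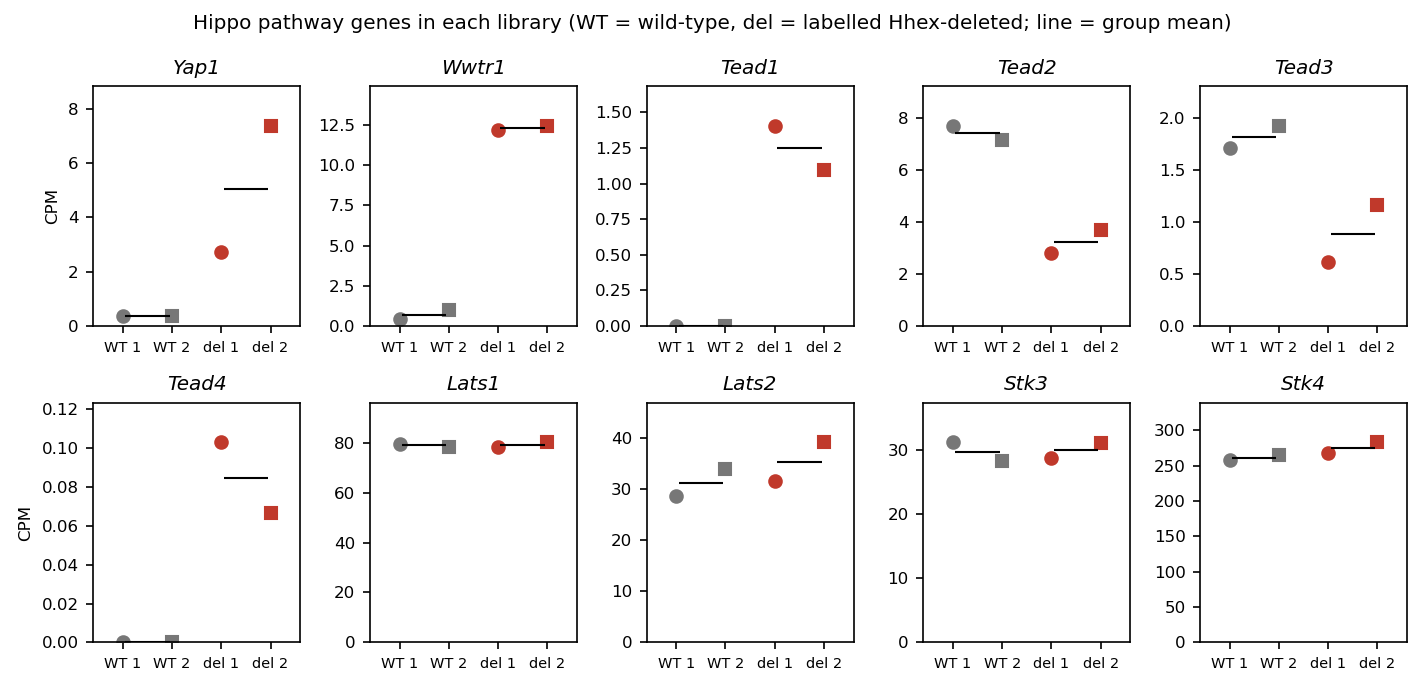
Level of each of the 10 genes in CPM (vertical axes, each from 0 and on its own scale) in the 2 wild-type libraries (grey) and the 2 libraries labelled Hhex-deleted (red), with lines at the group means. Yap1, Wwtr1 and Tead1 are near 0 in both grey libraries, Tead2 and Tead3 are lower in red, and the kinases Lats1, Lats2, Stk3 and Stk4 sit at similar heights in all 4 libraries.

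Yap1 encodes the coactivator YAP. Its counts were 10 and 10 reads in the wild-type libraries and 80 and 222 in the libraries labelled Hhex-deleted, or 0.365 and 0.35 CPM against 2.74 and 7.36 CPM. The groups did not overlap, and the libraries labelled Hhex-deleted differed between themselves, replicate 2 being the higher. Mean levels of 0.357 ± 0.0104 and 5.05 ± 3.27 CPM (SD, n = 2 each) gave a log2 fold change of 3.81 ± 0.58 (SE). The ratio of pooled CPM was 14.2, with a 95% interval of 9.06 to 23.7 that covers counting error only. Without labelled Hhex-deleted replicate 1 the log2 fold change was 4.35, and without replicate 2 of that group it was 2.93. On the authors' log2 RPKM scale, the level of Yap1 was listed at -3.31 in both wild-type libraries and at -0.46 and 0.86 in the others.

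Wwtr1 encodes TAZ, the paralog of YAP. It had 11 and 29 reads in wild-type and 356 and 375 in the libraries labelled Hhex-deleted, which is 0.401 and 1.02 CPM against 12.2 and 12.4 CPM. Here the libraries labelled Hhex-deleted lay close together and the wild-type libraries were apart, so the spread was on the opposite side to that of Yap1. The log2 fold change was 4.11 ± 0.40 (SE), from means of 0.708 ± 0.434 to 12.3 ± 0.171 CPM (SD, n = 2 each). Pooled over libraries the ratio was 17.2 (95% interval 12.5 to 24.3, counting error only). Leaving out labelled Hhex-deleted replicate 1 gave 4.12 on the log2 scale. Dropping a wild-type library moved it more, to 3.59 (replicate 1 dropped) or 4.93 (replicate 2 dropped). Wwtr1 was past the edgeR threshold whichever library was left out, whereas Yap1 was not past it when either wild-type library was dropped.

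RefSeq's promoter table for GRCm38.p6 held entries for 7 of the 10 genes. The promoters of the 2 coactivators are shown because both genes went from near silence to a clear level in the same libraries. Each run covers 250 bases before to 50 after the start site, 5′ to 3′ on the strand of the gene. Capitals mark GGAATG, the core of the MCAT element that TEAD proteins bind, which was searched for on both strands (its reverse complement is CATTCC). The Yap1 promoter lies at chr9:8004547-8004846 on the minus strand, and that of Wwtr1 (the first of 2 listed starts) at chr3:57575861-57576160, also on the minus strand.
Yap1: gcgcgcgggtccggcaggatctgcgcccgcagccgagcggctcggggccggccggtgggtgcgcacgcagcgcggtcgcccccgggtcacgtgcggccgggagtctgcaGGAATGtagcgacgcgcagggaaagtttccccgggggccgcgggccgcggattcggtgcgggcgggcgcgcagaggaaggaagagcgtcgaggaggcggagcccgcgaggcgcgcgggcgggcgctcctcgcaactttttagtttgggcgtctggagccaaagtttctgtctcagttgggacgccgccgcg
Wwtr1: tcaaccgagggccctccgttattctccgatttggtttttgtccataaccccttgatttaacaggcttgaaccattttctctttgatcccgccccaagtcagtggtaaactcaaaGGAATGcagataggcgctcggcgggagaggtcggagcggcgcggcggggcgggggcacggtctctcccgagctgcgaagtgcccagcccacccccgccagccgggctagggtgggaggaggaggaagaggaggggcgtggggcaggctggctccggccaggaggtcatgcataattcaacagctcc
Each held a single match, which began 141 bases before the start site in Yap1 and 136 bases before it in Wwtr1. Over all 32851 promoters of this length in the table, 14.7% held at least 1 match. Of the other members with an entry, Tead3 had matches at 2 of its 3 starts and Lats2 at 1 of its 2 starts, while the letters did not occur in the windows of Tead2, Lats1 and Stk4. Bases G and C made up 74% of the Yap1 window and 61.7% of that of Wwtr1, against a median of 52.7% over all promoters. The ratio of observed to expected CpG was 1.23 and 0.71. TAATT, a core sequence that many homeodomain proteins bind, was searched in the same way and does not overlap with GGAATG. It occurred in 27% of all promoters and, among the members, only in the windows of Wwtr1. These matches describe the letters and show no binding.

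TEAD proteins bring YAP and TAZ to DNA, and the 4 genes behaved differently. Tead1 had 0 and 0 reads in wild-type and 41 and 33 in the libraries labelled Hhex-deleted, or 1.4 and 1.09 CPM. Both libraries of the latter group were thus above the floor and both wild-type libraries at 0. Against a floor of 3 reads over the wild-type group, Tead1 was at least 23.3-fold higher, and it was not past the edgeR threshold when wild-type replicate 2 was dropped. Tead4 had no wild-type read and 3 and 2 in the libraries labelled Hhex-deleted, at or under 3 reads in every library, so no fold is given. It was the one member that did not pass the filter on low counts.

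Tead2 was the most abundant Tead gene in every library. Its counts were 211 and 205 in wild-type and 82 and 111 in the libraries labelled Hhex-deleted, corresponding to 7.7 and 7.18 CPM against 2.81 and 3.68 CPM. The groups did not overlap. The log2 fold change was -1.19 ± 0.22 (SE), which did not pass the edgeR threshold but passed it when labelled Hhex-deleted replicate 2 was dropped, with no low-count filter, and with DESeq2. It ran from -1.40 to -1.01 with any one library left out, the latter without labelled Hhex-deleted replicate 1. Tead3 had 47 and 55 reads against 18 and 35, or 1.71 and 1.93 CPM against 0.617 and 1.16 CPM. It too was lower in both libraries labelled Hhex-deleted, with a log2 fold change of -1.03 ± 0.39 (SE) that did not pass the threshold and was -0.65 without labelled Hhex-deleted replicate 1.

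Levels of different genes were compared only per gene length, in CPM per kilobase. The summed level of Yap1 and Wwtr1 was 0.171 and 0.296 in the wild-type libraries and 3.21 and 4.37 in the libraries labelled Hhex-deleted. The summed level of the 4 Tead genes was 4.29 and 4.12 against 1.74 and 2.31. The ratio of coactivator to Tead transcripts was 0.04 and 0.0719 in wild-type and 1.85 and 1.89 in the libraries labelled Hhex-deleted. In wild-type Tead2 supplied 84.9% and 82.3% of the Tead sum and Tead3 the rest. In the libraries labelled Hhex-deleted Tead2 supplied 76.5% and 75.3%, Tead3 13.4% and 19%, Tead1 8.12% and 4.75%, and Tead4 1.92% and 0.933%. Within the coactivators, the share of Wwtr1 varied between replicates, from 49% to 71.7% in wild-type and from 59.6% to 79.5% in the libraries labelled Hhex-deleted, so the groups overlapped.

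**Figure D2:**
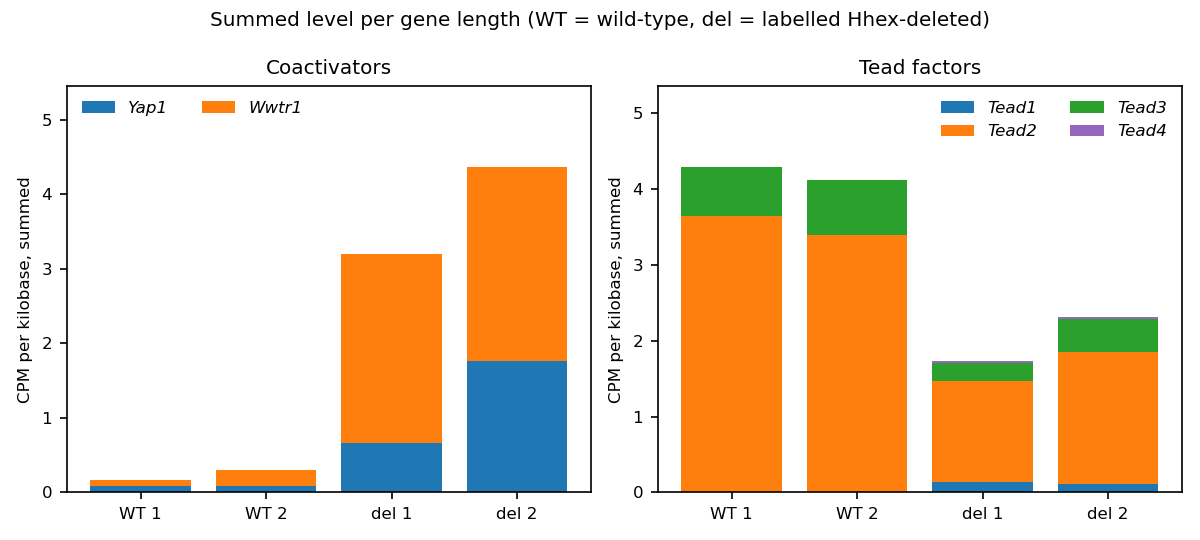
Level per gene length (vertical axis, CPM per kilobase, stacked) of the coactivators (left) and the Tead factors (right) in each of the 4 libraries. The coactivator bars reach 3.21 and 4.37 in the libraries labelled Hhex-deleted against 0.171 and 0.296 in wild-type, while the Tead bars, mostly Tead2, are 1.74 and 2.31 against 4.29 and 4.12.

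The kinases that restrain YAP and TAZ were well expressed in all 4 libraries. Stk4, the gene of MST1, stood at 258 and 265 CPM in wild-type and 267 and 283 CPM in the libraries labelled Hhex-deleted, a log2 fold change of 0.07 ± 0.08 (SE). The groups did not overlap for Stk4, but the gap between them was smaller than the spread within the group labelled Hhex-deleted. Stk3, the gene of MST2, had 31.2 and 28.3 CPM against 28.8 and 31.1 CPM, with overlapping groups and a log2 fold change of 0.01 ± 0.10. Lats1 stood at 79.5 and 78.3 CPM against 78.1 and 80.1 CPM, with a log2 fold change of 0.00 ± 0.07. Lats2, which is both a kinase of the pathway and a known target of YAP, had 28.6 and 33.9 CPM against 31.6 and 39.1 CPM. Its groups overlapped, and its log2 fold change was 0.18 ± 0.14, or 0.32 without labelled Hhex-deleted replicate 1. A model of Pcmt1 overlaps that of Lats1 in the RefSeq table, and without a stated strand setting their reads may be shared. Other models overlap those of Wwtr1 (the pseudogene Gm16016), Lats2 (Gm52140 and Gm26440) and Stk3 (Gm52204). No counts were found for these overlapping models.

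Ordered by level per length, the wild-type sequence was Stk4 at 50.4, Lats1 at 10.9, Stk3 at 10.2, Lats2 at 5.63, Tead2 at 3.52 and Tead3 at 0.688 CPM per kilobase, then Wwtr1 at 0.148 and Yap1 at 0.0857. The ranges of Wwtr1 and Yap1 overlapped there, and Tead1 and Tead4 were both at 0. No other neighbours in the order overlapped between their 2 libraries. In the libraries labelled Hhex-deleted the kinases kept their order, and Wwtr1 at 2.57 CPM per kilobase came above Tead2 at 1.53 and Yap1 at 1.21, the last pair with overlapping ranges. Stk4 transcripts exceeded those of Wwtr1 593- and 240-fold in the wild-type libraries and 20.2- and 21-fold in the libraries labelled Hhex-deleted. Among all tested genes, Wwtr1 stood at percentile 3 of level per length in wild-type and at percentile 25.2 in the libraries labelled Hhex-deleted. Stk4 stood at percentiles 86 and 87.3.

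**Figure D3:**
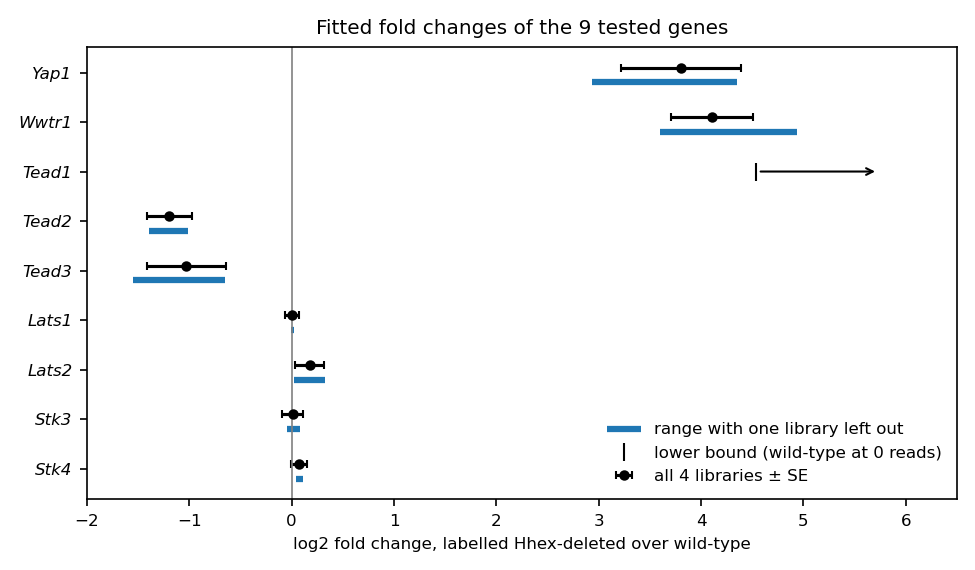
Log2 fold change of the 9 tested genes, labelled Hhex-deleted over wild-type (horizontal axis), with its SE (black) and the range when 1 library is left out (blue); for Tead1 the mark and arrow give the lower bound against 3 wild-type reads. Yap1 and Wwtr1 lie at 3.81 and 4.11, Tead2 and Tead3 at -1.19 and -1.03, and the 4 kinases between 0.00 and 0.18.

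The genes most like Wwtr1 over the 4 libraries were Tmem198, Scn4b, Vpreb3, Magi1 and Ebf1. The measure is the distance between mean-centred log2 CPM values, taken over 13427 genes with a mean of at least 1 CPM. Their distances were 0.413, 0.433, 0.808, 0.817 and 0.822. Scn4b, a sodium channel subunit gene, had 2 and 11 reads in wild-type and 102 and 147 in the libraries labelled Hhex-deleted. Magi1, a scaffold protein of cell junctions, had 21 and 24 reads against 340 and 346. Ebf1, a transcription factor that specifies B cells, had 15 and 29 reads against 212 and 294. With 4 libraries, likeness mainly reflects a low wild-type and a high labelled Hhex-deleted level.

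The other genes of the pathway were examined by role. Over all 14912 tested genes, 2360 had an unadjusted p under 0.05 in edgeR's test. None of 10 tested scaffolds and kinase partners passed edgeR's test, with 0 at an unadjusted p under 0.05 and 0 called by DESeq2 or limma-voom. Their median log2 fold change was -0.04 (range -0.20 to 0.23), against -0.01 over all tested genes. Mob1a, a partner that activates LATS, stood at 92.6 and 109 CPM against 91.7 and 107 CPM. Rassf5, an adaptor that binds MST kinases, had a log2 fold change of -0.11 ± 0.10 (SE) and Stk38, a kinase related to LATS, 0.06 ± 0.07. The largest changes were those of Frmd6 (0.23 ± 0.19) and Mob1b (0.21 ± 0.10), neither past the test (edgeR adjusted p = 0.684 and 0.4). Frmd6 went to -0.07 without labelled Hhex-deleted replicate 2 and to 0.48 without replicate 1 of that group.

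Of 10 upstream kinases, which can activate LATS or MST kinases, none passed edgeR's test. At an unadjusted p under 0.05 there were 2, against 2360 of all 14912 tested genes. DESeq2 called 1 (Tnik), against 1001 over all genes, and limma-voom 0. The list's median log2 fold change was 0.03. Tnik had 29.1 and 25.9 CPM in wild-type and 39.2 and 40.6 CPM in the libraries labelled Hhex-deleted, groups that did not overlap (log2 fold change 0.54 ± 0.10, SE, edgeR adjusted p = 0.056). Map4k4 stood at 173 and 152 CPM against 184 and 235 CPM (0.36 ± 0.14, edgeR adjusted p = 0.277). Taok3, Map4k2 and Map4k1, the members of this list with the highest levels per length, had log2 fold changes of 0.14, 0.04 and -0.07. Map4k2 went to -0.07 without labelled Hhex-deleted replicate 2. Without replicate 1 of that group Map4k2 stood at 0.14 and Map4k4 at 0.53.

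The STRIPAK complex is a phosphatase assembly that opposes MST kinases. None of its 10 genes passed edgeR's test, with 0 at an unadjusted p under 0.05 and 0 called by DESeq2 or limma-voom. Their median log2 fold change was 0.04. The catalytic subunit gene Ppp2ca stood at 307 and 296 CPM against 302 and 299.5 CPM, so the groups overlapped, as did those of Ppp2r1a and Strn4.

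Partners that bind or modify YAP and TAZ gave 1 gene past the test among 18 tested, which is 5.56% against 2.6% of all genes. An unadjusted p under 0.05 was found for 3, against 2360 of all 14912 tested genes. Limd1, a LIM domain protein that restrains LATS, rose from 92.7 and 94.5 CPM to 122 and 127 CPM (log2 fold change 0.41 ± 0.07, SE; edgeR adjusted p = 0.0488). Its groups did not overlap, but it no longer passed with wild-type replicate 1 left out (adjusted p = 0.256), nor with wild-type replicate 2 (0.256) or labelled Hhex-deleted replicate 2 (0.082). Ajuba (Jub in the deposited tables), a relative of Limd1, had 4.92 and 5.64 CPM against 3.91 and 3.18 CPM (-0.57 ± 0.23, edgeR adjusted p = 0.293). Ptpn14, a phosphatase that binds YAP, varied within both groups (12.1 and 6.62 CPM against 17.6 and 7.93 CPM). The 14-3-3 genes Ywhae, Ywhab and Ywhaz, whose products hold phosphorylated YAP in the cytoplasm, had log2 fold changes of 0.02, -0.03 and -0.06. The Vgll genes encode other TEAD cofactors: Vgll4 had 797 and 875 reads against 788 and 905, Vgll1 and Vgll2 had none in any library, and Vgll3 had at most 1. Amotl1, a scaffold that binds YAP, was picked out after its values were seen. It had 4 and 2 reads in wild-type and 34 and 23 in the libraries labelled Hhex-deleted, with a log2 fold change of 3.11 ± 0.56 (SE) that did not pass (edgeR adjusted p = 0.0503) but passed with DESeq2 and with no low-count filter.

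A list of 22 general YAP and TAZ target genes, put together from other cell types, was examined as the readout furthest downstream. Lats2 is also a member, and Amotl2 and Ptpn14 are also among the partners. Of 15 tested genes 1 rose and none fell, which is 6.67% against 2.6% of all genes. An unadjusted p under 0.05 was found for 5, against 2360 of all 14912 tested genes. Of these, Axl and Crim1 were higher and Asap1, Nuak2 and Arhgef17 lower. The median log2 fold change was -0.11, with 9 of 15 genes below 0, and over all tested genes 7642 of 14912 were below 0. Leaving out labelled Hhex-deleted replicate 1 gave a median of -0.24, and leaving out wild-type replicate 2 gave 0.02. Axl, a receptor tyrosine kinase, rose from 7.73 and 6.65 CPM to 22.4 and 31.8 CPM (log2 fold change 1.91 ± 0.21, SE; edgeR adjusted p = 0.0145). With wild-type replicate 2 left out Axl did not pass (adjusted p = 0.0658).

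Crim1, a membrane protein gene picked out after its values were seen, was higher in both libraries labelled Hhex-deleted (19.8 and 17.1 CPM against 27.3 and 29.6 CPM). The log2 fold change of 0.63 ± 0.12 (SE) did not pass (edgeR adjusted p = 0.0611), and passed only with DESeq2 and with no low-count filter among the alternatives. Over the list, 3 of the 15 tested genes had groups that did not overlap and were higher (Axl, Crim1 and Fjx1) and 6 had groups that did not overlap and were lower, against 21.9% and 23.7% of all tested genes. Ccn1 and Ccn2, the most widely used target genes, were close to silent, with 11 and 2 reads against 1 and 1 for Ccn1 and 4 and 3 reads against 0 and 4 for Ccn2. Ankrd1 had no read in any library. Asap1, the target with the highest level per length, stood at 178 and 177 CPM in wild-type and 134 and 99.8 CPM in the libraries labelled Hhex-deleted (-0.60 ± 0.14, edgeR adjusted p = 0.109), and passed the test without labelled Hhex-deleted replicate 1 (adjusted p = 0.011). Nuak2 (-0.58 ± 0.15) and Arhgef17 (-0.79 ± 0.23) had non-overlapping groups, lower in the libraries labelled Hhex-deleted, and did not pass (edgeR adjusted p = 0.118 and 0.163). With DESeq2 both Asap1 and Nuak2 passed as lower, beside Axl and Crim1 as higher. Gadd45a differed more within groups than between them (30.6 and 15.8 CPM against 30.7 and 17.6 CPM).

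**Figure D4:**
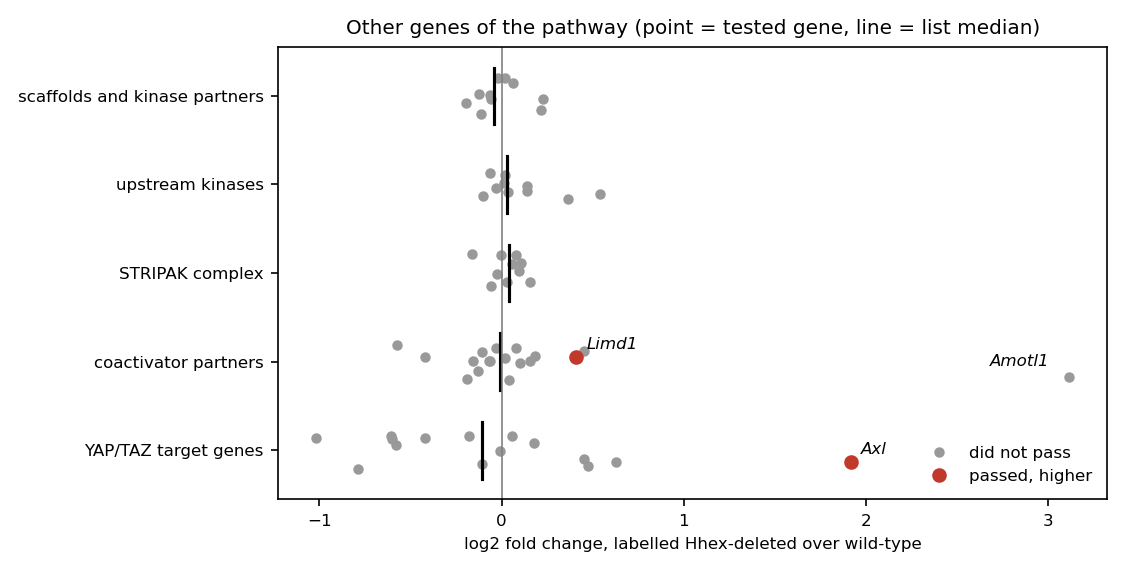
Log2 fold change, labelled Hhex-deleted over wild-type (horizontal axis), of each tested gene in 5 lists of other Hippo pathway genes, with the list median as a line. Limd1 (0.41) and Axl (1.91) passed edgeR's test and are red; Amotl1 (3.11) did not, and the list medians lie between -0.11 and 0.04.

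Marker genes of other cell types were followed beside the coactivators, in lists chosen with earlier results of these data known. Over all tested genes 1.48% were past edgeR's threshold and higher. Of 8 B cell precursor genes 7 rose in edgeR's test, and their summed level was 39.8 and 44.8 CPM in wild-type and 121 and 152 CPM in the libraries labelled Hhex-deleted, with no gene at 0 in all libraries. Of 7 tested mast cell and basophil genes (8 listed) 5 rose, with sums of 321 and 335 CPM against 1009.5 and 922 CPM, while Tpsb2 had 6 and 5 reads in wild-type and 0 in the other libraries. Within these sums Cpa3 had 125 and 106 CPM against 578 and 533 CPM. Hdc, which did not pass, was lower in both libraries labelled Hhex-deleted (119 and 149 CPM against 114 and 75.7 CPM). The part of these cells in the levels of Yap1, Wwtr1 and Tead1 was not tested. The counts of 7 B cell precursor genes and 5 mast cell and basophil genes were the same with DESeq2. With limma-voom they were 6 and 4, and with limma on the authors' log2 RPKM values 4 and 4.

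Stromal and endothelial cells are known to express Yap1 and Wwtr1. None of 3 tested stromal and bone genes (11 listed) passed edgeR's test, with 0 at an unadjusted p under 0.05 and 0 by DESeq2 or limma-voom. Their sum, 78.8 to 82.1 CPM in wild-type and 74.9 to 97.5 CPM in the libraries labelled Hhex-deleted, came almost wholly from Pdgfrb. Of the defining stromal genes, Pdgfra had at most 3 reads, Lepr at most 6, Col1a1 at most 8 and Col3a1 at most 1 in any library. Higher counts were seen in a single library each for Col1a2, with 42 and 42 reads in wild-type against 147 and 42, and for Cxcl12, with 31 and 26 against 28 and 88. The part of stromal cells in the coactivator levels was not tested. None of 7 tested endothelial genes (8 listed) passed edgeR's test, with 3 at an unadjusted p under 0.05 and 0 by DESeq2 or limma-voom. Over all 14912 tested genes, 2360 had an unadjusted p under 0.05. The endothelial sum was 15.6 to 17.5 CPM in wild-type and 18.2 to 21.9 CPM in the libraries labelled Hhex-deleted. Emcn, the largest part of the wild-type sum, had 9.63 and 7.98 CPM against 7.06 and 7.66 CPM. Among the 7 tested genes, 3 had non-overlapping groups and were higher (Cdh5, Stab2 and Flt4) and 1 was lower (Emcn). The groups of Kdr, Plvap and Cldn5 overlapped. Kdr and Plvap were highest in labelled Hhex-deleted replicate 1, and Cldn5 in wild-type replicate 2. The shares of all tested genes with non-overlapping groups were 21.9% higher and 23.7% lower. Stab2 had 13 and 10 reads against 27 and 40, and Flt4 had 25 and 24 against 46 and 61. Cdh5, the endothelial cadherin gene, had 3 and 3 reads against 18 and 24, and Lyve1 had at most 1 read. The part of endothelial cells in the coactivator levels was not tested. Megakaryocyte genes summed to 404 to 466 CPM against 481 to 668 CPM, and long-term stem cell genes to 222 to 228 CPM against 197 to 337 CPM, with overlapping groups for the latter.

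**Figure D5:**
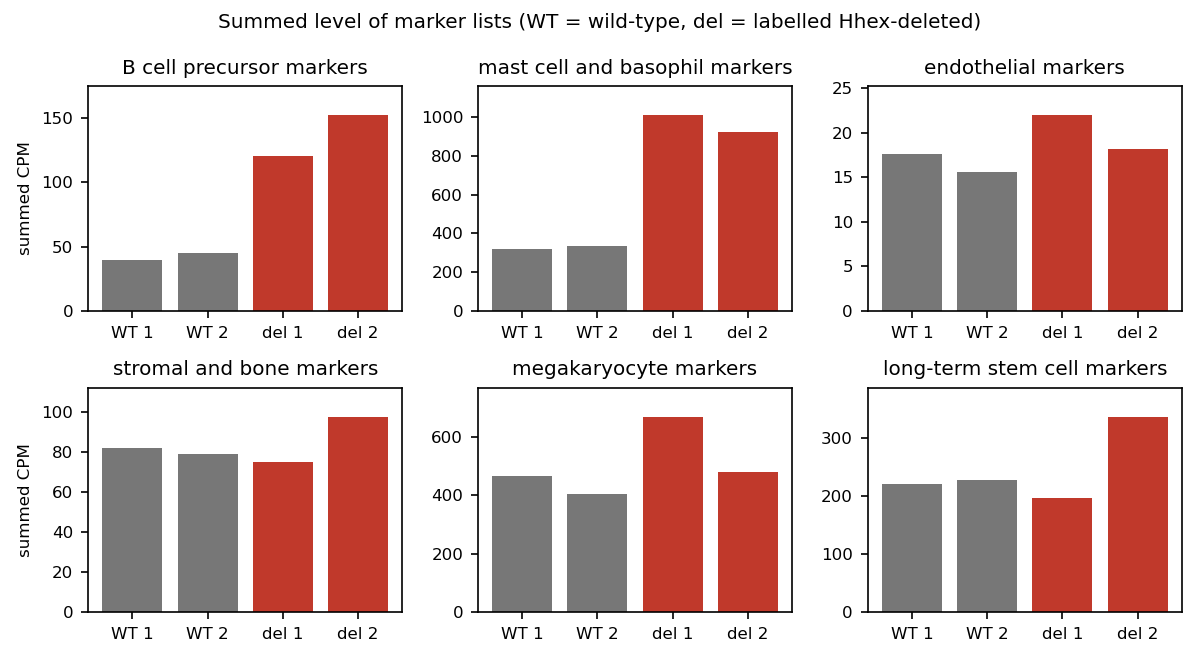
Summed CPM (vertical axes, from 0) of 6 marker lists in the 2 wild-type libraries (grey) and the 2 libraries labelled Hhex-deleted (red). B cell precursor and mast cell markers are higher in both red libraries (121 and 152 against 39.8 and 44.8 CPM, and 1009.5 and 922 against 321 and 335 CPM), and long-term stem cell markers are lower in the one and higher in the other red library.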

How the data were processed

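Per the labels' protocols, a TruSeq kit was used on RNA of sorted LSK cells. The authors deposited raw read counts per Entrez gene and, for each library, log2 RPKM values for 12662 genes. Subread, featureCounts, limma and the mm9 build appear in the submitters' processing notes, without versions or roles. Gene lengths used here are those the authors deposited with the counts, and other values in that table were not needed.

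Each library was grouped by its title. The deposited counts went into edgeR 4.0.16 (R 4.3.3): filterByExpr by group (minimum count 10, minimum total 15), TMM scaling, a robust quasi-likelihood fit with group as the single term, and Benjamini-Hochberg adjustment over all 14912 genes at 0.05. A standard error is the log2 fold change divided by the square root of F. Alternatives used DESeq2 1.42.0, limma 3.58.1 and other filters and scalings. The fits were tested on simulated counts. Symbols came from the deposited tables or RefSeq. Intervals of pooled ratios are exact conditional binomial at 95%.

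The members, gene lists and the naming rule were chosen with earlier results of these data known. The rule names every member, and from each other list the genes past the threshold, the 3 with the highest level per length and the 2 with the largest change at a mean of at least 1 CPM. It also names the 5 genes most like the most changed member with a mean of at least 1 CPM, with 0.1 added before the log2. Markers were fixed for the sorted gate, lineage, B cell precursor, mast cell, stromal, endothelial, megakaryocyte and stem cells. Values of 2 genes of these lists are not reported here.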

Additional observations from a re-analysis of the deposited data

How the results depend on the processing

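The log2 fold changes of Yap1, Wwtr1, Tead1, Tead2 and Tead3 kept their sign under every alternative that gave a value, while those of Lats1 and Stk3, near 0, changed sign under 2 each. Over all genes 388 passed, and 251 with library totals only, 1001 with DESeq2, 202 with limma-voom, 40 with limma on the deposited log2 RPKM values, and 124 to 597 with any one library left out. Of the members 3 passed, 0 on the log2 RPKM values, which hold 8 of them, and 1 to 4 with a library left out. The lowest count, 1, came without wild-type replicate 2. Yap1 did not pass with library totals only or limma-voom, and Tead2 passed with DESeq2 and with no low-count filter. Upstream kinases gave 0, and 1 with DESeq2 or no low-count filter. Coactivator partners gave 1, but 0 with library totals only, limma-voom or log2 RPKM, 2 with DESeq2 or no filter, and 0 to 1 with a library left out. Target genes gave 1, but 4 with DESeq2 (2 higher, 2 lower), 2 with no filter, 0 on log2 RPKM and 0 to 2 with a library left out. The causes were not tested. With the replicate block, 315 genes passed, 245 of them shared with the fit without it. Of the members 2 passed (Yap1 and Wwtr1), of the target genes 1 and of the coactivator partners 0. Same-numbered libraries deviated together (r = 0.359 over genes), but with 2 pairs this does not show that the numbers pair the libraries. The fitted log2 fold change of Tead1 fell from 8.18 to 4.25 with a prior count of 2, so only its lower bound is given above. With at most 29 reads in a wild-type library, depth limits the folds of Yap1, Wwtr1 and Tead1.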

Other observations

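The nearest protein-coding genes on either side of each member in the RefSeq table, 20 in all, include 15 that were tested. Against 2.6% of all tested genes, 1 of these 15 passed edgeR's test. This was Tulp3, next to Tead4, with 56 and 50 reads in wild-type and 646 and 510 in the libraries labelled Hhex-deleted (log2 fold change 3.36 ± 0.22, SE, edgeR adjusted p = 0.00408). Tspan9, on the other side of Tead4, had 152 and 234 reads against 64 and 108 (-1.25, edgeR adjusted p = 0.124). Beside Tead1, Rassf10 had 4 and 11 reads against 64 and 204 (4.05 ± 0.77, SE, edgeR adjusted p = 0.0757), and Parva had none in wild-type and 6 and 4 in the libraries labelled Hhex-deleted. Among the neighbours of Yap1 and Wwtr1, Birc3 had a log2 fold change of 0.13, Commd2 of 0.01 and Cfap300 (9230110C19Rik in the deposited tables) of 1.32, none past the test, and Tm4sf4 had no read.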
